A study of Mus musculus with 12 samples.

Results

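Transforming growth factor beta (TGF-beta) and bone morphogenetic protein (BMP) pathway genes were followed in mouse embryonic fibroblasts (MEFs) with and without the coactivators CBP and p300. The group is a list of 45 genes: ligands, receptors, Smads, Id genes and regulators. A gene was measured where a probe set carried its symbol alone, and where several did, the brightest on average stood for it. This gave 43 genes of 17097 measured in all; Inhbb and Gdf15 were not analysed here. The 4 groups, with 3 arrays each, were double knockout (dKO) MEFs given the iron chelator 2',2'-dipyridyl (DP), dKO MEFs given ethanol, wild-type MEFs given DP and wild-type MEFs given ethanol. All were primary cells of e14.5 embryos, strain C57Bl/6 x 129Sv (F1), at passage 4. All received an adenovirus expressing Cre recombinase at an MOI of 100, which deletes the conditional CBP and p300 alleles that the dKO lines carry in homozygous form. All grew in 3% oxygen for 16 h with virus and 48 h more, and in normoxia for 24 h before DP (100 µM) or its vehicle ethanol was given for 3 h. DP mimics low oxygen, since the enzymes that mark hypoxia-inducible factor (HIF) for breakdown need iron. Each of 3 dKO lines (1, 5 and 6) and 3 wild-type lines (3, 4 and 5) gave 1 array per treatment, and values by array follow that order of lines.

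TGF-beta, activin and BMP ligands are secreted dimers that bring type II and type I receptor kinases together. The activated type I receptor phosphorylates Smad2 and Smad3 (TGF-beta and activin) or Smad1, Smad5 and Smad9 (BMP), which enter the nucleus with Smad4 and recruit coactivators, among them CBP and p300. Fibroblasts answer TGF-beta with matrix production, and BMP signalling switches on the Id genes, whose products block basic helix-loop-helix transcription factors.

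Levels are log2 values, changes are differences of log2 values, and the value after ± is the standard error of a change with 3 arrays per group. A gene was called at a limma adjusted p under 0.05 over all genes. Counts at an unadjusted p under 0.05 were made for the listed genes alone and have no share of all genes beside them. Control probe sets that match no transcript had a 95th percentile of 3.54 at most, called the blank level here; Bmp2, Smad9 and Nog had all 4 group means at or under it, Bmp6 and Bmpr1a some of them, and the other 38 genes none. The CBP gene Crebbp differed in dKO cells by -0.76 ± 0.16 under DP and -0.85 ± 0.16 in ethanol; whether its probes lie in the deleted stretch is not known here. Xist, the RNA of the inactive X chromosome, lay between 3.94 and 5.32 on dKO arrays and between 10.28 and 10.75 on wild-type arrays, so genotype and sex of the lines cannot be told apart. None of the 43 genes lies on X or Y.

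Of 10 fibroblast markers 9 were above the blank level in all groups, and 9 were lower in dKO cells in each treatment. Their summed level (log2) lay between 13.3 and 13.65 on dKO arrays and between 14.75 and 14.88 on wild-type arrays. The summed epithelial, skeletal muscle, cartilage, adipocyte and neural marker levels were also lower on every dKO array than on every wild-type array of the same treatment. The 6 macrophage markers ran the other way under DP, where they summed to 7.2 to 7.59 on dKO arrays, against 6.82 to 7.18 on wild-type arrays. Of these markers limma called 1 higher and 3 lower in dKO under DP. In ethanol the sums overlapped, at 7.19 to 7.7 on dKO arrays, against 6.56 to 7.46 on wild-type arrays. Ptprc and Aif1 were near the blank level in all groups, as were the endothelial markers Pecam1, Cdh5, Tek and Tie1. The 3' minus 5' beta-actin signal, which grows with RNA degradation, was 0.48 to 0.60 on dKO arrays with DP, against 0.28 to 0.38 on wild-type arrays with DP, and 0.40 to 0.45 on dKO arrays with ethanol, against 0.23 to 0.25 on wild-type arrays with ethanol. It thus separated the genotypes and, within each genotype, the treatments. The part of these differences in the genotype and DP results was not tested, and fewer cells of a type and less RNA per cell cannot be told apart in bulk RNA. The ethanol arrays of dKO line 1 and wild-type line 5 stood apart from their groups, and results that rest on them are given with and without them. Their deviations from their group means went together, with a correlation of 0.844 over 8917 genes. The cause of this shared deviation was not tested. The genotype and DP comparisons share arrays.

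The 250 bases before the start of 4 genes are shown because results turn on them: Id2 was called in all 5 comparisons, Id3 fell with DP in dKO cells, Acvr1b rose with DP in wild-type cells and Tgfbi had the largest genotype difference of the 43 genes. The sequences are from RefSeq (GRCm38.p6), 5′ to 3′ on the strand of the gene: Id2 at chr12:25096093-25096342 (minus strand), Id3 at chr4:136143572-136143821 (plus), Acvr1b at chr15:101173822-101174071 (plus) and Tgfbi at chr13:56609336-56609585 (plus). Capitals mark ACGTG and GCGTG (core letters of HIF sites) and GGCGCC (a GC-rich Smad element), each searched on both strands.
Id2: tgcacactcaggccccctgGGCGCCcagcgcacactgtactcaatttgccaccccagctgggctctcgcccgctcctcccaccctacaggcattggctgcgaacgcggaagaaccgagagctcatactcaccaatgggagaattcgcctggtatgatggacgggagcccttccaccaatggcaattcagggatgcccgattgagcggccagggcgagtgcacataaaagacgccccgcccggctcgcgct
Id3: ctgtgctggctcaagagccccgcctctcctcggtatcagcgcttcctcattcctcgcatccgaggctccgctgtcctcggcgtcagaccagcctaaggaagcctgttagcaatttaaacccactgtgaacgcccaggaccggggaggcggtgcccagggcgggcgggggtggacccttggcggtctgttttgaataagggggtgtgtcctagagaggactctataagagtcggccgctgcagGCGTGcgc
Acvr1b: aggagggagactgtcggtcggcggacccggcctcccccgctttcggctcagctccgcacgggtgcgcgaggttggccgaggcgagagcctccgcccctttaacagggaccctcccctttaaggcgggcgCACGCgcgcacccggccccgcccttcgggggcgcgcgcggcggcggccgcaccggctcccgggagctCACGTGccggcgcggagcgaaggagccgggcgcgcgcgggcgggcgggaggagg
Tgfbi: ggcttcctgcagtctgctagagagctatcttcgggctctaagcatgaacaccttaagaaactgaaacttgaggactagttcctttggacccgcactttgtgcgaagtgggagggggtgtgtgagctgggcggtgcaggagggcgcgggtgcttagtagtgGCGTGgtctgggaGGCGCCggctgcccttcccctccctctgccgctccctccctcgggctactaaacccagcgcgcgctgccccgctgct
The Acvr1b window holds ACGTG on both strands, starting at -54 and -53 from the gene start and overlapping as CACGTG, and GCGTG on the minus strand at -121. Id2 has GGCGCC at -231 and neither HIF core, Id3 has GCGTG at -8, and Tgfbi has GCGTG at -90 and GGCGCC at -77. Such windows were matched for 31 of the 43 genes. ACGTG or GCGTG stood in 23 of them (74.2%), against 41.5% of 27025 genes, and GGCGCC in 11 (35.5%), against 10.8%. TGACGTCA, the full site of CREB, which binds CBP, stood in 1 (Ltbp1; 3.2%, against 1.8%), and the Smad element GTCTAGAC in 0, against 0.2%. The 27025 genes include genes not measured here, and base composition was not matched between them and the 31. These shares therefore do not show an excess of HIF or Smad sites. A match describes letters in these windows and shows no binding.

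Comparing dKO with wild-type cells asked how the pathway stands without CBP and p300. Most pathway genes that differed were lower in dKO cells. Under DP 22 were lower and 3 higher (58.1% called, against 35.4% of all genes, with 16.9% lower and 18.5% higher). In ethanol 24 were lower and 6 higher (69.8% called, against 33.6% of all genes, with 14.1% lower and 19.5% higher). The median difference of the 43 genes was -0.42 under DP and -0.51 in ethanol, beside -0.01 for all genes in each. All 22 genes lower under DP were lower in ethanol too, and 14 of them at least 2-fold in both. For 24 genes under DP and 24 in ethanol every dKO array lay below every wild-type array (25.3% and 18.8% of all genes), and for 8 and 6 above (28.4% and 21.2%). Of all genes called in ethanol 58.1% were higher, against 46.2% after cyclic loess, which gave 26 lower and 4 higher pathway genes. A further fit left out the 40% of genes with the lowest means. Under DP it called 25 of 38 pathway genes (22 lower), against 5599 of 10258 genes (2452 lower). In ethanol it called 28 of 38 (23 lower), against 5445 of 10258 genes (2110 lower). The part of expression level in the shares of calls was not tested.

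**Figure D1:**
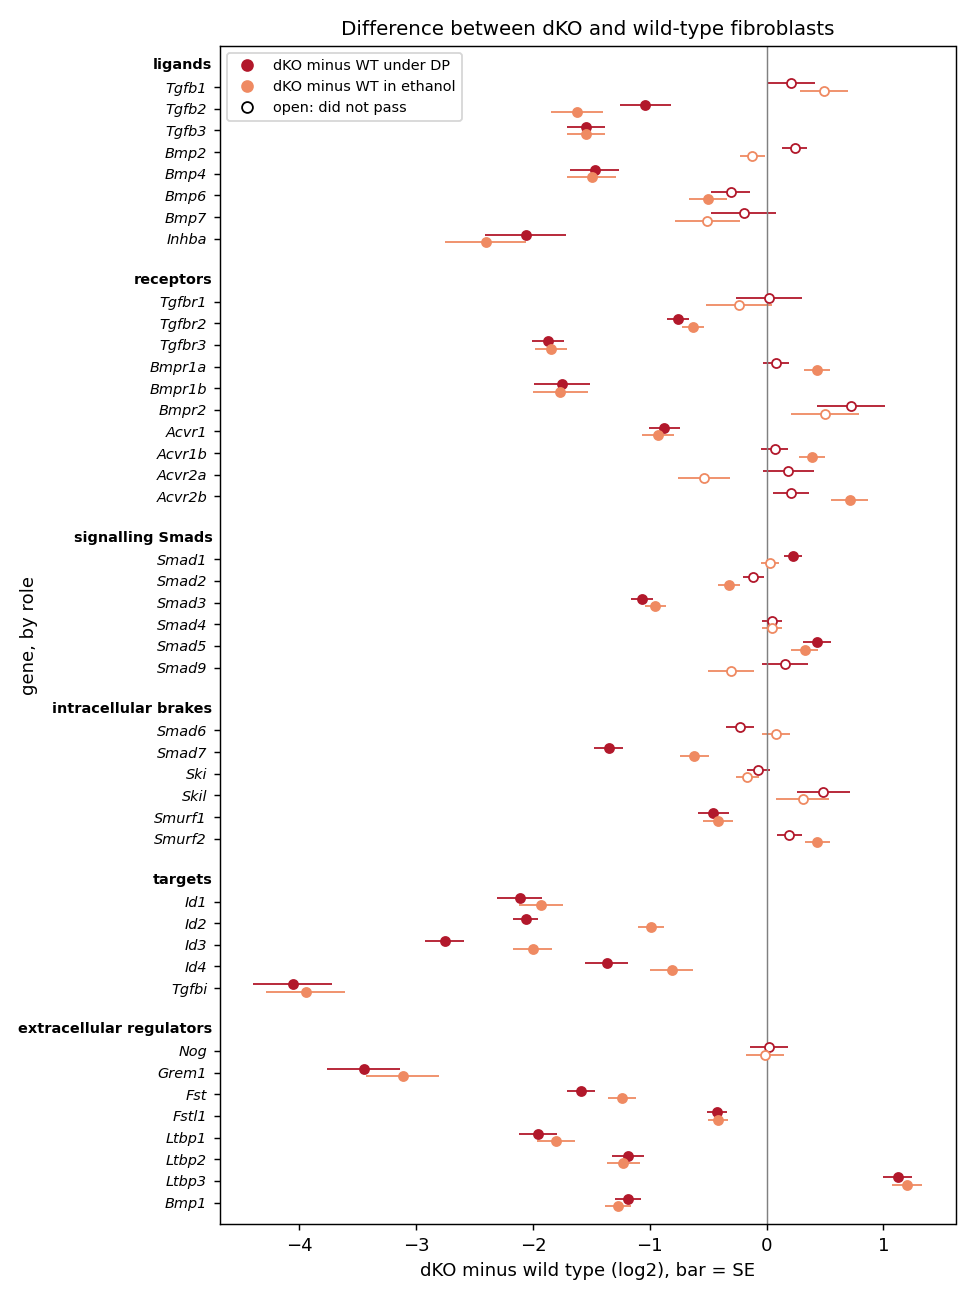
Difference between dKO and wild-type MEFs (log2, x axis) for the 43 genes by role (y axis), under DP and in ethanol; points are limma estimates, bars standard errors (n = 3 arrays per group), and open points did not pass the test. Tgfbi and Grem1 lie farthest to the left and Ltbp3 farthest to the right in both treatments.

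Of 8 ligand genes 4 were lower in dKO under DP and 5 in ethanol, and limma called 0 higher (1 in each treatment at an unadjusted p under 0.05). Of all genes 16.9% were lower and 18.5% higher under DP, and 14.1% lower and 19.5% higher in ethanol. These shares also stand beside the counts by role that follow. Inhba had 8.71, 8.44 and 7.93 on dKO arrays with DP, against 10.62, 10.45 and 10.19 on wild-type arrays with DP, and 7.66, 8.77 and 7.95 on dKO arrays with ethanol, against 11.04, 10.85 and 9.69 on wild-type arrays with ethanol. Inhba encodes the subunit of activin A, and its dKO arrays were all below the wild-type arrays. The difference was -2.06 ± 0.35 under DP (adjusted p = 0.000454) and -2.41 ± 0.35 in ethanol (adjusted p = 0.000138).

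Tgfb2 and Tgfb3 encode further TGF-beta isoforms. Tgfb2 had 4.25, 4.67 and 4.14 on dKO arrays with DP, against 5.51, 5.45 and 5.21 on wild-type arrays with DP, and 3.91, 4.62 and 4.15 on dKO arrays with ethanol, against 6.01, 6.14 and 5.39 on wild-type arrays with ethanol. Tgfb3 had 8.67, 8.94 and 8.30 on dKO arrays with DP, against 10.17, 10.28 and 10.10 on wild-type arrays with DP, and 9.24, 9.15 and 8.71 on dKO arrays with ethanol, against 10.53, 10.70 and 10.52 on wild-type arrays with ethanol. For both isoforms every dKO array was below every wild-type array of its treatment. The Tgfb2 difference was -1.04 ± 0.22 under DP and -1.62 ± 0.22 in ethanol, and that of Tgfb3 -1.55 ± 0.16 under DP and -1.55 ± 0.16 in ethanol. Tgfb1 had 6.37, 6.08 and 7.00 on dKO arrays with DP, against 6.22, 6.36 and 6.25 on wild-type arrays with DP, and 6.81, 6.48 and 6.33 on dKO arrays with ethanol, against 5.90, 5.92 and 6.32 on wild-type arrays with ethanol. Tgfb1, the isoform most studied in fibrosis, overlapped between genotypes under DP and was just separated, with dKO higher, in ethanol. It did not pass, at 0.21 ± 0.20 under DP (adjusted p = 0.486) and 0.49 ± 0.20 in ethanol (adjusted p = 0.0856), but passed in ethanol without the wild-type array of line 5 (0.63, adjusted p = 0.0438).

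Bmp4 had 5.57, 6.04 and 5.42 on dKO arrays with DP, against 7.30, 6.75 and 7.41 on wild-type arrays with DP, and 6.24, 6.62 and 5.94 on dKO arrays with ethanol, against 7.79, 7.61 and 7.88 on wild-type arrays with ethanol. Bmp4, a BMP ligand of mesenchyme, had no dKO array as high as any wild-type array of its treatment. It was lower, at -1.47 ± 0.21 under DP and -1.50 ± 0.21 in ethanol. Bmp6 passed in ethanol (-0.50 ± 0.16, adjusted p = 0.0303), a call lost without the ethanol array of wild-type line 4 or of dKO line 5 or 6, and its dKO mean under DP was at the blank level. Bmp2, a BMP ligand near the blank level, passed under DP after cyclic loess (0.30, adjusted p = 0.0333), and Bmp7 in ethanol without the wild-type array of line 4 (-0.83, adjusted p = 0.0227); neither passed with all arrays.

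Outside the cell, latent TGF-beta is tethered to the matrix by LTBP proteins, and soluble antagonists keep ligands from their receptors. Of 8 such regulators 6 were lower and 1 higher in dKO in each treatment. Grem1 had 6.32, 6.26 and 5.22 on dKO arrays with DP, against 9.66, 9.28 and 9.22 on wild-type arrays with DP, and 5.81, 6.66 and 5.55 on dKO arrays with ethanol, against 9.44, 9.08 and 8.86 on wild-type arrays with ethanol. Grem1 encodes gremlin, a BMP antagonist, and its highest dKO array was more than 2 log2 units below the lowest wild-type array of the same treatment. The difference was -3.45 ± 0.31 under DP (adjusted p = 2.88e-06) and -3.12 ± 0.31 in ethanol (adjusted p = 7.22e-06). Fst had 6.62, 6.40 and 6.55 on dKO arrays with DP, against 8.29, 8.04 and 8.01 on wild-type arrays with DP, and 7.08, 6.71 and 7.05 on dKO arrays with ethanol, against 8.28, 8.08 and 8.18 on wild-type arrays with ethanol. Fst encodes follistatin, which binds and neutralises activin, and was lower, at -1.59 ± 0.12 under DP and -1.24 ± 0.12 in ethanol.

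Ltbp1 had 8.23, 8.31 and 7.74 on dKO arrays with DP, against 10.14, 10.02 and 10.00 on wild-type arrays with DP, and 8.55, 8.31 and 7.95 on dKO arrays with ethanol, against 10.11, 10.08 and 10.03 on wild-type arrays with ethanol. Ltbp1, which tethers latent TGF-beta, was lower, at -1.96 ± 0.16 under DP and -1.80 ± 0.16 in ethanol, with no overlap. Ltbp3 had 9.74, 9.75 and 9.75 on dKO arrays with DP, against 8.62, 8.58 and 8.69 on wild-type arrays with DP, and 10.06, 9.77 and 9.72 on dKO arrays with ethanol, against 8.63, 8.40 and 8.90 on wild-type arrays with ethanol. Ltbp3 ran the other way, with every dKO array above every wild-type array, and was higher, at 1.12 ± 0.13 under DP and 1.20 ± 0.13 in ethanol. Ltbp2, whose product does not bind latent TGF-beta, was lower, at -1.19 ± 0.14 under DP and -1.23 ± 0.14 in ethanol. Bmp1 encodes a metalloproteinase that matures procollagen, not a BMP ligand, and was lower, at -1.19 ± 0.11 under DP and -1.27 ± 0.11 in ethanol. Fstl1, a gene for a follistatin-like secreted protein, was lower, at -0.42 ± 0.09 under DP and -0.42 ± 0.09 in ethanol. Nog, which encodes the BMP antagonist noggin, was at the blank level throughout.

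**Figure D2:**
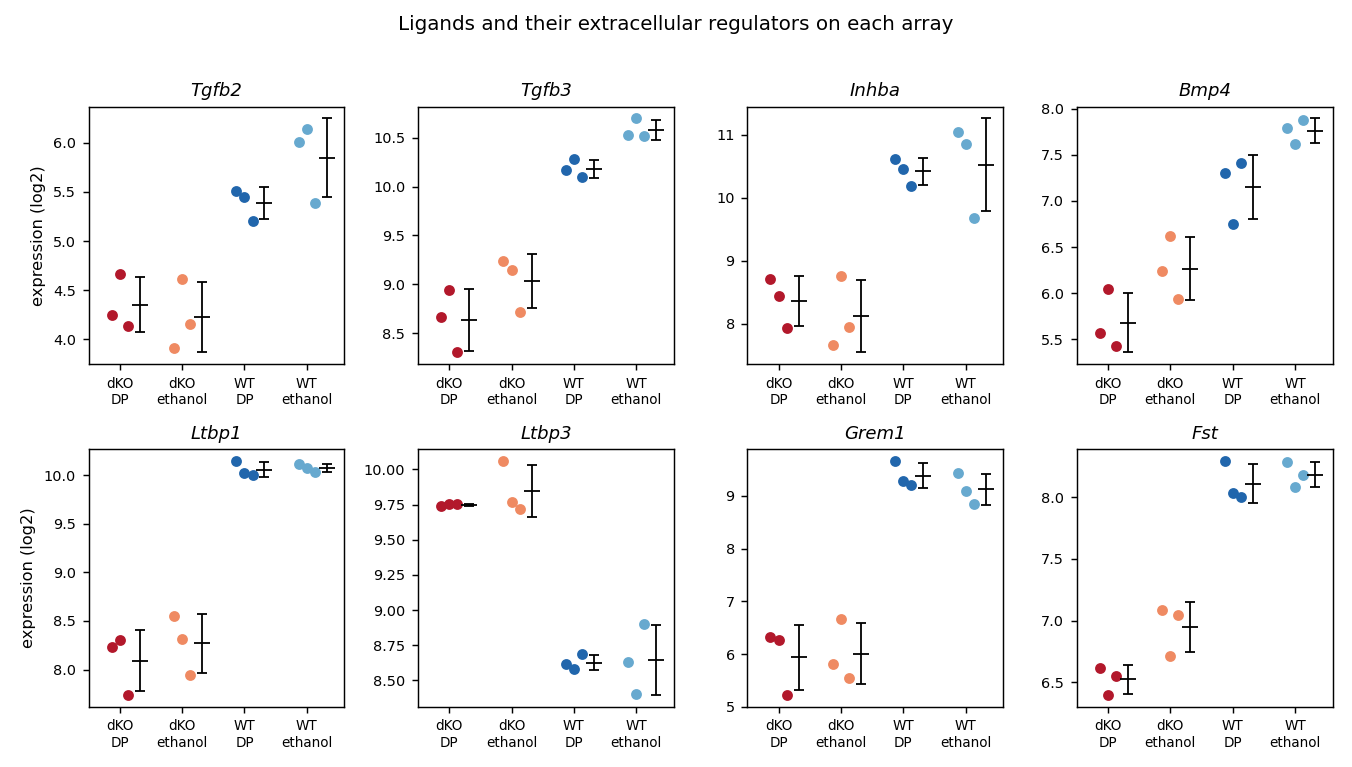
Log2 expression (y axis) of 4 ligand genes and 4 extracellular regulator genes on each array, by group (x axis); points are arrays, and the bar is the mean with its SD (n = 3). Every dKO array lies below every wild-type array of its treatment for 7 of the genes and above for Ltbp3.

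The 10 receptor genes were divided: 4 were lower in dKO in each treatment, and 3 were higher in ethanol. Tgfbr3 had 6.79, 6.86 and 6.83 on dKO arrays with DP, against 8.62, 8.50 and 8.98 on wild-type arrays with DP, and 6.64, 6.74 and 6.93 on dKO arrays with ethanol, against 8.46, 8.57 and 8.82 on wild-type arrays with ethanol. Tgfbr3 encodes betaglycan, the co-receptor that presents TGF-beta; its groups were narrow and far apart. The difference was -1.87 ± 0.14 under DP (adjusted p = 5.29e-07) and -1.85 ± 0.14 in ethanol (adjusted p = 6.44e-07). Bmpr1b had 4.57, 5.17 and 4.37 on dKO arrays with DP, against 6.52, 6.56 and 6.28 on wild-type arrays with DP, and 5.07, 5.22 and 4.58 on dKO arrays with ethanol, against 6.97, 6.95 and 6.25 on wild-type arrays with ethanol. Bmpr1b, a type I BMP receptor gene, was lower without overlap, at -1.75 ± 0.24 under DP and -1.77 ± 0.24 in ethanol. Acvr1, which encodes the type I receptor ALK2, was lower, at -0.88 ± 0.14 under DP and -0.93 ± 0.14 in ethanol. Tgfbr2, the type II TGF-beta receptor gene, was lower, at -0.76 ± 0.09 under DP and -0.63 ± 0.09 in ethanol, and its call under DP was lost with the mean of probe sets. Higher in ethanol were Acvr2b, a type II activin receptor gene (0.71 ± 0.16), Bmpr1a, a type I BMP receptor gene near the blank level (0.43 ± 0.11), and Acvr1b, which encodes the activin type I receptor ALK4 (0.39 ± 0.11). Under DP these 3 differed by 0.21 ± 0.16, 0.08 ± 0.11 and 0.07 ± 0.11, and limma called 0 receptor genes higher (1 at an unadjusted p under 0.05). The Acvr1b call in ethanol was lost after cyclic loess, with the mean of probe sets, and without the ethanol array of wild-type line 3 or dKO line 6, while Acvr2b passed under DP when its probe sets were averaged (0.26, adjusted p = 0.0304).

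Of the Smads that carry the signal, Smad3, the effector of TGF-beta and activin, differed most. Smad3 had 7.77, 7.80 and 7.73 on dKO arrays with DP, against 8.83, 8.83 and 8.84 on wild-type arrays with DP, and 7.77, 7.70 and 7.61 on dKO arrays with ethanol, against 8.50, 8.64 and 8.79 on wild-type arrays with ethanol. All dKO arrays were below all wild-type arrays. The difference was -1.07 ± 0.09 under DP (adjusted p = 1.89e-06) and -0.95 ± 0.09 in ethanol (adjusted p = 5.03e-06). Smad4, the common partner, differed by 0.05 ± 0.09 under DP and 0.05 ± 0.09 in ethanol and did not pass. Smad1, a BMP Smad, was called higher under DP (0.22 ± 0.08, adjusted p = 0.0423), a call that ended without any 1 of the 6 DP arrays, after cyclic loess, with median centring and with the mean of probe sets. Smad2 was lower in ethanol (-0.32 ± 0.09), but its other probe set was 0.39 higher, and the call was also lost without the ethanol array of wild-type line 3 or 4. Smad5, a BMP Smad, was higher, at 0.43 ± 0.12 under DP and 0.33 ± 0.12 in ethanol. A further Smad5 probe set differed by 0.43 and 0.33, and another differed by -0.39 under DP and -0.69 in ethanol. The directions of Smad2 and Smad5 thus depend on the probe set, and the Smad5 call in ethanol was lost without the ethanol array of wild-type line 3 or 5 or dKO line 5 or 6, and with median centring, and both Smad5 calls after cyclic loess and with the mean of probe sets.

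Of 6 genes for brakes inside the cell 2 were lower in each treatment. Smad7 had 7.53, 7.47 and 7.16 on dKO arrays with DP, against 8.66, 8.76 and 8.80 on wild-type arrays with DP. With ethanol it had 7.18, 6.83 and 6.96 on dKO arrays, against 7.74, 7.45 and 7.63 on wild-type arrays. Smad7, whose product blocks type I receptors, was lower, at -1.35 ± 0.13 under DP and -0.62 ± 0.13 in ethanol. Smurf1 and Smurf2 encode ubiquitin ligases that act with Smad7. Smurf1 was lower, at -0.46 ± 0.13 under DP and -0.42 ± 0.13 in ethanol; its call was lost under DP without the array of dKO line 5 or with median centring, and in ethanol without that of wild-type line 5 or dKO line 5 or 6. Smurf2 was higher in ethanol (0.43 ± 0.11) and did not pass under DP (0.20 ± 0.11). Smad6 had 6.34, 6.21 and 6.27 on dKO arrays with DP, against 6.55, 6.42 and 6.53 on wild-type arrays with DP, and 6.40, 6.15 and 6.52 on dKO arrays with ethanol, against 6.24, 6.11 and 6.48 on wild-type arrays with ethanol. Smad6, the brake on BMP Smads, overlapped between genotypes in ethanol and was separated, with dKO lower, under DP, where it passed after cyclic loess alone (-0.38, adjusted p = 0.0197). Ski, a gene for a Smad co-repressor, passed in ethanol after cyclic loess alone (-0.31, adjusted p = 0.0199).

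All 5 genes counted as targets, the Id genes and Tgfbi, were lower in dKO cells in both treatments. Of all genes 16.9% were lower under DP and 14.1% in ethanol. The count leaves out genes listed as brakes: Smad7 was lower, while Smad6 and Skil did not pass with the deposited values and all arrays. Tgfbi had 5.60, 5.94 and 4.79 on dKO arrays with DP, against 9.38, 9.31 and 9.81 on wild-type arrays with DP, and 6.22, 6.06 and 5.09 on dKO arrays with ethanol, against 9.41, 9.54 and 10.26 on wild-type arrays with ethanol. Tgfbi is a matrix protein gene named for its induction by TGF-beta; its lowest wild-type array was more than 3 log2 units above the highest dKO array of the same treatment. The difference was -4.06 ± 0.34 under DP (adjusted p = 1.5e-06) and -3.94 ± 0.34 in ethanol (adjusted p = 2.07e-06), which is 16.6-fold and 15.4-fold. Id1 had 5.49, 5.55 and 5.17 on dKO arrays with DP, against 7.74, 7.25 and 7.55 on wild-type arrays with DP, and 6.31, 5.86 and 5.92 on dKO arrays with ethanol, against 7.90, 7.65 and 8.34 on wild-type arrays with ethanol. Id3 had 7.42, 7.19 and 7.04 on dKO arrays with DP, against 9.92, 10.13 and 9.87 on wild-type arrays with DP, and 8.40, 7.94 and 7.67 on dKO arrays with ethanol, against 9.94, 9.89 and 10.20 on wild-type arrays with ethanol. For Id1 and Id3, both classical BMP targets, no dKO array reached the lowest wild-type array. Id1 was lower, at -2.11 ± 0.19 under DP and -1.93 ± 0.19 in ethanol, and Id3 at -2.76 ± 0.17 under DP and -2.00 ± 0.17 in ethanol. Id4 had 5.94, 5.81 and 5.37 on dKO arrays with DP, against 7.06, 6.72 and 7.45 on wild-type arrays with DP, and 5.67, 6.05 and 5.90 on dKO arrays with ethanol, against 6.62, 6.75 and 6.69 on wild-type arrays with ethanol. Id4 was lower, at -1.37 ± 0.18 under DP and -0.81 ± 0.18 in ethanol, without overlap, and its call in ethanol was lost with the mean of probe sets. Id2 was lower, at -2.06 ± 0.11 under DP and -0.99 ± 0.11 in ethanol.

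**Figure D3:**
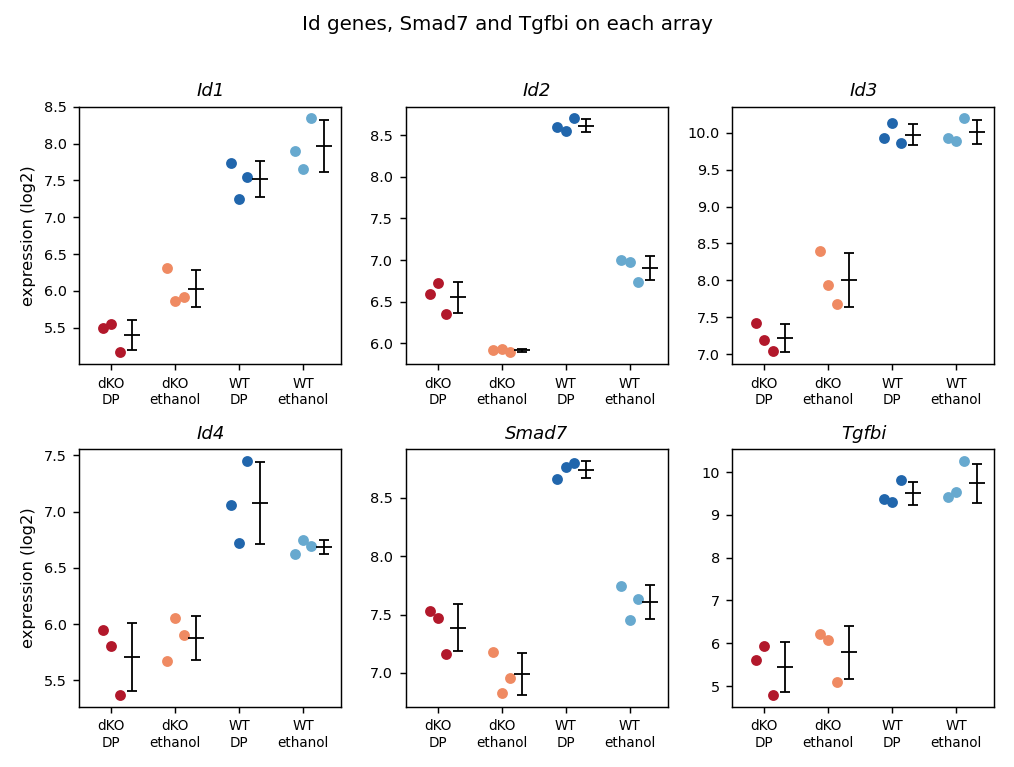
Log2 expression (y axis) of the 4 Id genes, Smad7 and Tgfbi on each array, by group (x axis); points are arrays, and the bar is the mean with its SD (n = 3). Id2 and Smad7 are highest on wild-type arrays with DP, and all 6 genes are lower on dKO than on wild-type arrays of the same treatment.

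Comparing DP with ethanol in wild-type cells asked which of these genes respond within 3 h. Of the 43 genes 4 rose and limma called 0 lower (9.3% called, against 4.73% of all genes, with 3.05% higher and 1.67% lower). At an unadjusted p under 0.05, 4 were higher and 8 lower, and all genes were not counted at that threshold. Without the 40% of genes with the lowest means, 4 of 38 pathway genes were called, against 829 of 10258 genes. The median change was -0.04, beside -0.03 for all genes. Without overlap, 6 genes were higher and 9 lower with DP (8.97% and 13.6% of all genes). Beside these changes, some summed marker levels also separated the treatments in wild-type cells: adipocyte markers summed to 8.78 to 9.18 with DP, against 7.67 to 8.29 with ethanol, and cartilage markers to 7.85 to 7.94 with DP, against 7.07 to 7.36 with ethanol, with 1 marker called higher in each list. Neural markers summed to 7.5 to 7.67 with DP, against 7.87 to 8.17 with ethanol, and fibroblast markers to 14.86 to 14.88 with DP, against 14.75 to 14.85 with ethanol. The 3' minus 5' beta-actin signal was higher on every DP array, as given above, while that of Gapdh overlapped (0.04 to 0.17 with DP, against -0.03 to 0.15 with ethanol); the part of these in the DP results was not tested. Id2 had 8.59, 8.55 and 8.70 with DP, against 7.00, 6.97 and 6.74 with ethanol, and rose within lines by 1.59, 1.58 and 1.96. Every DP array was above every ethanol array. The change was 1.71 ± 0.11 (3.28-fold, adjusted p = 5.76e-07), and 1.19 to 1.77 over the alternatives.

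Smad7, a feedback gene that TGF-beta itself induces, had 8.66, 8.76 and 8.80 with DP, against 7.74, 7.45 and 7.63 with ethanol, and rose within lines by 0.92, 1.31 and 1.17. No DP array was as low as any ethanol array, and the change was 1.14 ± 0.13 (2.20-fold, adjusted p = 0.000102). Acvr1b had 7.31, 7.34 and 7.40 with DP, against 6.35, 6.60 and 6.76 with ethanol, and rose by 0.78 ± 0.11 (adjusted p = 0.000955). The calls of Id2, Smad7 and Acvr1b held in each alternative run. Smurf2 rose by 0.41 ± 0.11 (adjusted p = 0.0487), a call lost in 8 of 12 alternatives, among them the fit with lines as blocks (adjusted p = 0.0518), median centring, the fit without both deviating arrays, and those without 5 of the 6 single arrays (all but the ethanol array of line 4).

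Bmp4 had 7.30, 6.75 and 7.41 with DP, against 7.79, 7.61 and 7.88 with ethanol. It was lower in each line, at -0.61 ± 0.21 (adjusted p = 0.159), and passed only with lines as blocks (adjusted p = 0.0127). Without both deviating arrays 3 genes were called lower: Tgfb2 (-0.69, adjusted p = 0.0451), Acvr2a (-0.46, adjusted p = 0.0354) and Smad2 (-0.39, adjusted p = 0.0154); Smad2 also passed without the ethanol array of line 5 alone (adjusted p = 0.0312). The other Id genes did not pass, with changes of -0.45 ± 0.19 for Id1, -0.03 ± 0.17 for Id3 and 0.39 ± 0.18 for Id4.

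In dKO cells 1 gene rose and 1 fell with DP (4.7%, against 1.50% of all genes, with 1.01% higher and 0.491% lower). Without the 40% of genes with the lowest means, 2 of 38 pathway genes were called, against 304 of 10258 genes. The median change was -0.06, beside -0.05 for all genes. Without overlap, 2 genes were higher and 7 lower with DP (6.32% and 14.4% of all genes). Adipocyte markers summed to 7.14 to 7.26 with DP, against 6.12 to 6.5 with ethanol, with 1 marker called higher, and the fibroblast, cartilage and neural sums overlapped. The beta-actin signal was again higher on every DP array, and that of Gapdh was 0.10 to 0.19 with DP, against 0.19 to 0.21 with ethanol; their part in these results was not tested. Id2 had 6.59, 6.72 and 6.35 with DP, against 5.92, 5.93 and 5.89 with ethanol. All 3 values with DP were above the ethanol values, and lay below those of wild-type cells with ethanol. The change was 0.64 ± 0.11 (adjusted p = 0.00887), and the call was lost with the mean of probe sets, 1 of which is near the blank level in 3 groups, and without the DP array of line 1 or 5.

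Id3 had 7.42, 7.19 and 7.04 with DP, against 8.40, 7.94 and 7.67 with ethanol, and was lower in each line, with changes of -0.97, -0.75 and -0.64. The groups did not overlap, and the change was -0.78 ± 0.17 (adjusted p = 0.0402, and 0.0171 with lines as blocks). This call was lost after cyclic loess, without both deviating arrays (-0.59, adjusted p = 0.0553) and without any 1 of the 6 arrays other than the ethanol array of line 6. Id1 was lower without overlap and did not pass (-0.63 ± 0.19, adjusted p = 0.164). Fst changed by -0.42 ± 0.12 (adjusted p = 0.146) and passed without the ethanol array of line 5 (-0.54, adjusted p = 0.0474). Bmp4 changed by -0.59 ± 0.21 (adjusted p = 0.253, and 0.0351 with lines as blocks). Smad7 changed by 0.40 ± 0.13 (adjusted p = 0.183). Acvr1b had 7.27, 7.54 and 7.45 with DP, against 7.02, 6.88 and 6.97 with ethanol; the change of 0.46 ± 0.11 did not pass (adjusted p = 0.0721), but did after cyclic loess (adjusted p = 0.014) and without both deviating arrays (adjusted p = 0.0481).

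**Figure D4:**
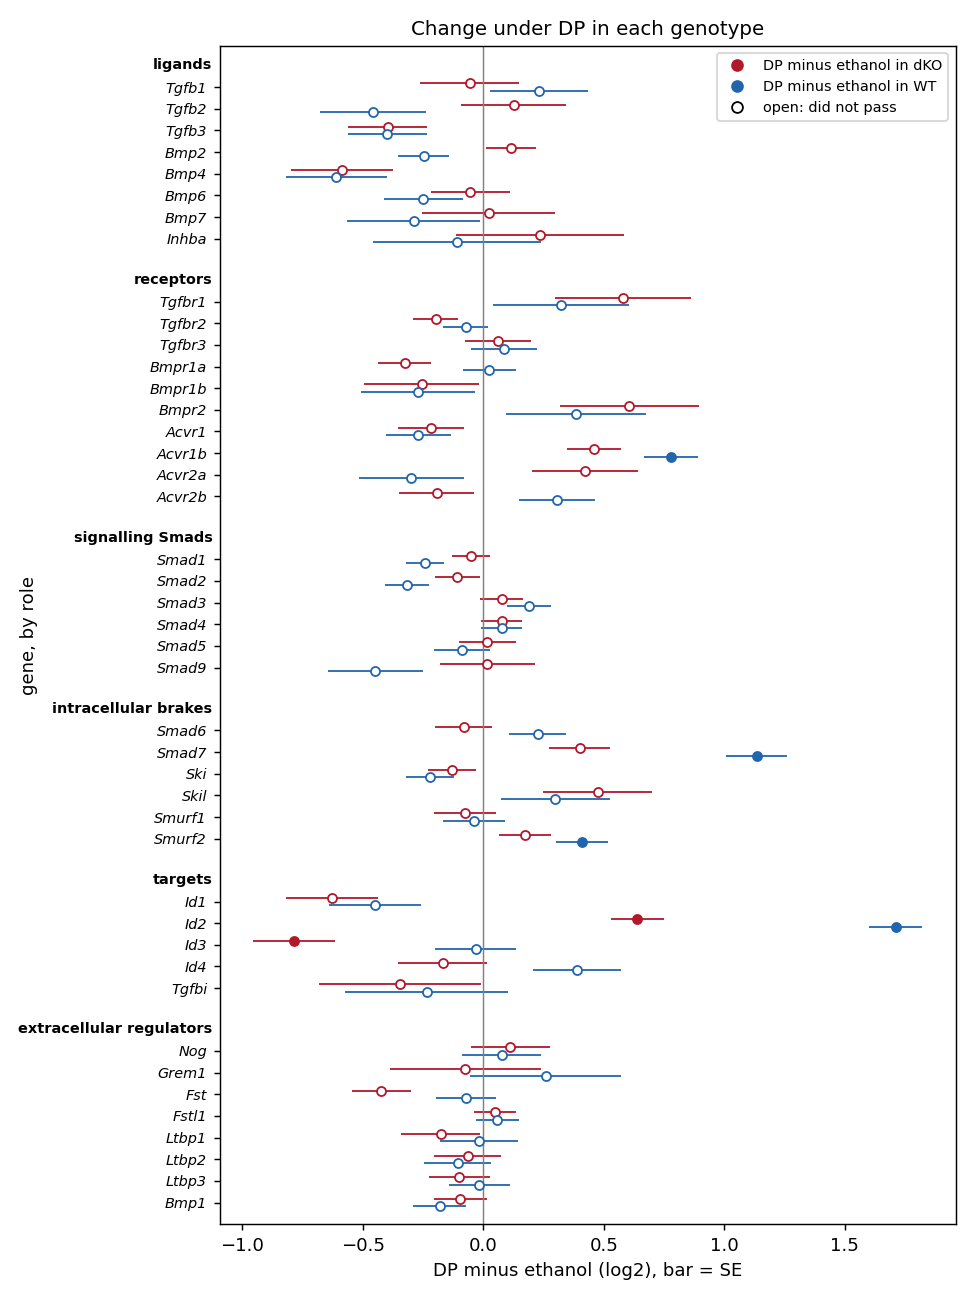
Change with DP against ethanol (log2, x axis) for the 43 genes by role (y axis), in dKO and in wild-type MEFs; points are limma estimates, bars standard errors (n = 3 arrays per group), and open points did not pass the test. Id2 passed in both genotypes, Id3 in dKO, and Smad7, Acvr1b and Smurf2 in wild type.

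Subtracting the wild-type DP effect from the dKO one asked whether the response depends on genotype. Of the 43 genes Id2 was called, lower in dKO (2.3%, against 0.562% of all genes, with 0.515% lower and 0.0468% higher). Its within-line rises were 0.67, 0.79 and 0.46 in dKO, against 1.59, 1.58 and 1.96 in wild type, and did not overlap. The difference was -1.07 ± 0.16 (adjusted p = 0.00551); it lay between -1.16 and -0.85, with adjusted p from 0.0051 to 0.024, over 18 alternatives. For Smad7 the within-line changes were 0.36, 0.64 and 0.20 in dKO, against 0.92, 1.31 and 1.17 in wild type. These did not overlap either, yet the difference of -0.74 ± 0.18 did not pass over all genes (adjusted p = 0.164). Nor did those of Id3 (-0.75 ± 0.24, adjusted p = 0.441) and Acvr1b (-0.32 ± 0.16, adjusted p = 0.884), so a call in 1 genotype alone shows no difference between them for these genes. Bmp4, lower with DP in every line of both genotypes, differed by 0.02 ± 0.30.

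Several genes moved with both deviating ethanol arrays. These arrays were picked for leaving out because they deviate in these same data. Neither is in the genotype comparison under DP, so there the estimates stayed and only the standard errors changed. Over all genes, leaving them out gave 7661 calls under DP, against 6057 with all arrays. In ethanol it gave 6352, against 5740. Bmpr2 had 10.64, 10.75 and 10.72 on dKO arrays with DP, against 10.15, 9.89 and 9.89 on wild-type arrays with DP, and 9.28, 10.64 and 10.37 on dKO arrays with ethanol, against 9.82, 9.86 and 9.09 on wild-type arrays with ethanol. Bmpr2, the type II BMP receptor gene, was lowest among ethanol arrays of its genotype on those of dKO line 1 and wild-type line 5. With all arrays it did not pass (0.72 ± 0.29 under DP (adjusted p = 0.072) and 0.50 ± 0.29 in ethanol (adjusted p = 0.222)), and without these it was higher in dKO by 0.72 ± 0.10 under DP (adjusted p = 0.000124) and 0.66 ± 0.12 in ethanol (adjusted p = 0.00129). The ethanol value was 0.91 without the array of dKO line 1 alone (adjusted p = 0.00315) and 0.58 with probe sets averaged (adjusted p = 0.0364), and the DP value 0.77 with median centring (adjusted p = 0.0394). Skil had 9.95, 10.13 and 10.09 on dKO arrays with DP, against 9.69, 9.58 and 9.44 on wild-type arrays with DP, and 9.003, 9.99 and 9.76 on dKO arrays with ethanol, against 9.44, 9.52 and 8.86 on wild-type arrays with ethanol. Skil, which encodes the Smad co-repressor SnoN, had the same low arrays. Its differences were 0.49 ± 0.23 under DP (adjusted p = 0.119) and 0.31 ± 0.23 in ethanol (adjusted p = 0.341) with all arrays, and without these 0.49 ± 0.10 (adjusted p = 0.00164) and 0.39 ± 0.12 (adjusted p = 0.0227); leaving out the array of dKO line 1 alone gave 0.60 in ethanol (adjusted p = 0.018). Tgfbr1 had 8.52, 8.49 and 8.51 on dKO arrays with DP, against 8.49, 8.42 and 8.53 on wild-type arrays with DP, and 7.18, 8.49 and 8.10 on dKO arrays with ethanol, against 8.54, 8.33 and 7.61 on wild-type arrays with ethanol. Tgfbr1, the type I TGF-beta receptor gene, was also low on them and did not pass in any comparison with or without them. Acvr2a, a type II activin receptor gene, differed in ethanol by -0.54 ± 0.22 (adjusted p = 0.0806), and passed without both arrays (-0.39, adjusted p = 0.0263), after cyclic loess (-0.72, adjusted p = 0.0324) with median centring (adjusted p = 0.0458), and without the ethanol array of wild-type line 5 (-0.69, adjusted p = 0.0354) or dKO line 5 (-0.76, adjusted p = 0.0146).

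**Figure D5:**
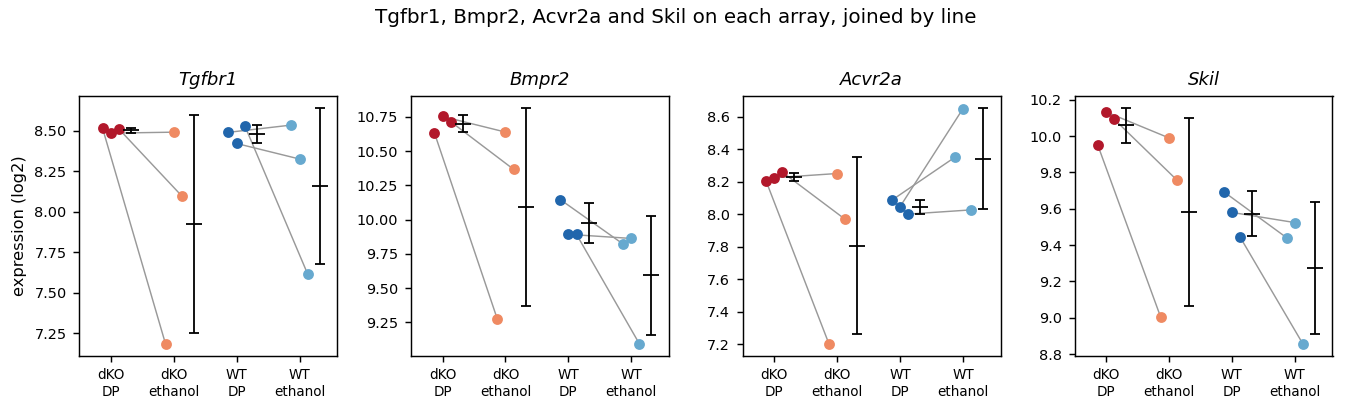
Log2 expression (y axis) of Tgfbr1, Bmpr2, Acvr2a and Skil on each array by group (x axis), with lines joining the DP and ethanol arrays of a MEF line. Among the ethanol arrays of each genotype, that of dKO line 1 and that of wild-type line 5 lie lowest for all 4 genes.

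The 43 genes had 83 probe sets. Of the 40 not used above 21 were above the blank level in all groups, and 16 of these belonged to genes called for genotype in ethanol; 14 had the sign of the chosen probe set, and those of Smad2 and Smad5 named above did not. A further Id2 probe set changed with DP by 0.50 in dKO and 1.64 in wild type, and a further Tgfbi probe set differed between genotypes by -3.11 under DP and -3.07 in ethanol.

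Beyond these genes, 65 of 79 further genes listed for the pathway and its targets were measured. The list was chosen with earlier results of these data known, so its shares of calls, here and with DP, only describe it. For genotype 9 were higher and 26 lower under DP (53.8% called, beside 35.4% of all genes), and 9 higher and 25 lower in ethanol (52.3%, beside 33.6%). With the 40% of genes of lowest mean left out, limma called 5599 of 10258 genes under DP and 5445 in ethanol. The 65 genes were not counted in that fit, so their shares are from the fit of all genes. Lowest in dKO were the matrix genes Dpt (dermatopontin; -4.60 ± 0.25 under DP and -4.34 ± 0.25 in ethanol) and Dcn (decorin, which binds TGF-beta; -3.63 ± 0.29 and -3.73 ± 0.29). Ccn3, a matricellular gene, differed by -3.27 ± 0.35 and -3.07 ± 0.35, Hey1, a repressor gene induced by Notch and BMP signals, by -2.61 ± 0.13 under DP, and Postn (periostin) by -2.28 ± 0.33 in ethanol. Hey1 means in ethanol were 4.38 in dKO and 6.28 in wild type, and Postn means under DP 10.84 and 12.78. A gene named for a single treatment was among the largest changes there and can differ in the other too. Higher were the matricellular gene Ccn1 (1.15 ± 0.08 under DP and 1.02 ± 0.08 in ethanol), under DP Zfyve16 (1.07 ± 0.34), Msx1 (0.90 ± 0.20) and Tgfbrap1 (0.88 ± 0.10), and in ethanol Twsg1 (0.87 ± 0.16), Map3k7 (0.82 ± 0.15) and Zfyve9 (0.74 ± 0.20). Zfyve9 encodes SARA, which presents Smads to receptors, and Map3k7 the kinase TAK1.

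With DP 7 of the 65 rose and 6 fell in wild type (20.0%, beside 4.73% of all genes). The fit without the 40% of genes with the lowest means called 829 of 10258 genes with DP in wild type and 304 in dKO. The 65 were not counted in it. Inha, the inhibin alpha gene, rose by 1.27 ± 0.21, Hey1 by 1.27 ± 0.13, the transcription factor gene Mef2c by 1.19 ± 0.19, and Klf10, an early TGF-beta response gene, by 1.16 ± 0.14. Bambi, which encodes a decoy receptor, changed by -1.03 ± 0.17, the BMP target Msx1 by -0.93 ± 0.20, the Smad co-repressor gene Tgif1 by -0.70 ± 0.10 and Bmper by -0.49 ± 0.12. In dKO limma called 0 of the 65 higher (5 at an unadjusted p under 0.05) and 2 lower (3.1%, beside 1.50%), namely Tgif1 (-0.56 ± 0.10) and Tsc22d1 (-0.50 ± 0.09). For the difference of the DP effects limma called 0 of the 65, beside 0.562% of all genes (0.515% lower and 0.0468% higher). At an unadjusted p under 0.05, 0 were higher and 9 lower, and all genes were not counted at that threshold.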

How the data were processed

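RNA of 12 MEF cultures was measured on Affymetrix arrays. The deposited values are log2 probe set levels, made by the authors with RMA and Affymetrix Expression Console 1.1, according to the submitters' processing notes; RMA includes normalization between arrays. Scanner files were left aside. Of 45141 probe sets 104 were controls, 28898 had 1 symbol, 551 several and 15588 none. The number of arrays sets the precision.

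limma 3.58.1 in R 4.3.3 (lmFit, eBayes) fitted 1 mean per group over all 12 arrays, with 5 contrasts and Benjamini-Hochberg adjustment over 17097 genes, and was tested on simulated data; Python 3.11.15 made tables and figures. The genes and lists were chosen with earlier results of these data known. Values by array are given for the 14 genes of largest called change and for Smad7, Smad6, Id1, Id2, Id3, Skil, Tgfb1 and Bmp4; those of Smad3, Ltbp3, Acvr1b, Bmpr2 and Tgfbr1 were added after their values were seen. Of other pathway genes up to 4 of largest change per direction were named. Arrays pair by MEF line, since the labels give each line both treatments; the deviations of paired arrays correlated at 0.04 to 0.42 over 8917 genes. Alternatives were lines as blocks, cyclic loess, centring on medians, dropping the 40% of genes with the lowest means, averaging a gene's probe sets, and fits without both deviating arrays or any single array.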

Additional observations from a re-analysis of the deposited data

Results flagged for a closer look

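The response of Id2 to DP differed between the genotypes by a test of the difference itself: dKO minus wild type was -1.07 ± 0.16 (limma adjusted p = 0.00551). Id2 rose in 3 of 3 lines of each genotype, by 0.67, 0.79 and 0.46 in dKO, against 1.59, 1.58 and 1.96 in wild type. Its mean with ethanol was 5.91 in dKO and 6.90 in wild type. The lines' genotype and their Xist level move together and cannot be told apart.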

How the results depend on the processing

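Of 62 calls of pathway genes over the 5 comparisons, 49 held under every alternative run that kept the gene, and 13 were lost under at least 1. The fit without the 40% of genes with the lowest means kept 38 of the 43 pathway genes. Of the genes called with all arrays, it left out Bmpr1a and Bmp6. Their genotype calls in ethanol were thus not tested there. With MEF lines as a replicate block, 3 pathway genes were called with DP in dKO and 4 in wild type, 25 for genotype under DP, 30 in ethanol and 1 for the difference; Bmp4 was gained with DP in both genotypes and Smurf2 lost in wild type. With the mean of probe sets 1 pathway gene was called with DP in dKO, and the genotype differences in ethanol of Smad2 and Smad5 turned to 0.032 and -0.012. Leaving out 1 array at a time gave 0 to 2 pathway genes called with DP in dKO (0 without the DP array of line 1 or 5, 1 without that of line 6 or the ethanol array of line 1). Over all genes it gave 153 to 292 called with DP in dKO (153 and 160 without the DP arrays of lines 1 and 6), where all arrays gave 256, and 538 to 680 in wild type (538 without the DP array of line 4), where all arrays gave 808. Of the genes called with DP in dKO 67.2% rose, against 82.3% after cyclic loess and 80.6% with median centring; the cause was not tested. Genes near the blank level can have understated changes.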
